A study of Homo sapiens with 12 samples.

Results

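The genes described here are the numbered zinc finger genes of human chromosome 19, taken as every gene in the count files whose symbol is ZNF followed by digits and whose listed chromosome is 19. There were 237 of them among 19923 genes. A mean of at least 1 CPM (the count per 1000000 reads of a library, with TMM factors) in at least 1 of the 4 groups was reached by 214, and the results below are about those. Just inside that threshold ZNF837 and ZNF575 had a highest group mean of 1.37 and 1.52 CPM, and just outside it ZNF135 and ZNF600 had 0.776 and 0.634 CPM. The threshold takes the highest group, so a member that passes through a single group had to differ between groups, and the 23 members below it are left out of all counts of called members.

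Sequencing of polyadenylated RNA was done in SK-N-BE2 and in NGP. Both are established lines of human neuroblastoma with MYCN amplification and, per the labels, of WT genotype. Cells were kept for 6 days with the solvent DMSO or with STM2457, an inhibitor of METTL3, the enzyme that places N6-methyladenosine (m6A) on messenger RNA. The dose of STM2457 was 12 µM in SK-N-BE2 but 1 µM in NGP. With 3 replicates for each line and treatment there were 12 libraries in 4 groups, and nothing in the labels says whether these were separate cultures, so p-values measure the spread between these libraries, which may be technical. Dose and sequencing run differ by line and cannot be told apart from it.

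Most zinc finger genes of chromosome 19 encode C2H2 proteins, in which tandem fingers read DNA and an amino-terminal KRAB box recruits the corepressor TRIM28. TRIM28 brings the histone methyltransferase SETDB1 and heterochromatin proteins to the bound site, and many of these proteins silence retrotransposons. The genes arose by tandem duplication and lie in clusters, and all fingers of a protein are usually encoded by a single long last exon, which makes neighbours similar in sequence.

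That exon structure was visible in the files' annotation. The median longest exon of the 237 members was 3495 bases, against 2204 bases among all genes tested in a line. The longest exon made up a median 70.6% of a member's exon length, against 45.1% among all genes tested, and it lay at the 3′ end in 71.7% of members against 64.3%. In GENCODE 44, 236 members had a coding sequence, with a median longest coding exon of 1526 bases and a median of 12 C2H2 fingers (range 1 to 36), and 200 matched a pattern for the KRAB box that misses diverged boxes. The following stretches of 183 bases from the coding exons of ZNF208, ZNF724 and ZNF420 (hg38, transcript strand) are shown because they contain the repeat that builds these exons: the 15 bases that encode the linker between neighbouring fingers are in capitals and return every 84 bases.
ZNF208: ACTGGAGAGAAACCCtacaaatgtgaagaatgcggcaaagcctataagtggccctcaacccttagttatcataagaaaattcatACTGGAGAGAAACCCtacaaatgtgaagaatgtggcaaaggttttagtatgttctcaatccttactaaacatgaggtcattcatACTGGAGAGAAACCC
ZNF724: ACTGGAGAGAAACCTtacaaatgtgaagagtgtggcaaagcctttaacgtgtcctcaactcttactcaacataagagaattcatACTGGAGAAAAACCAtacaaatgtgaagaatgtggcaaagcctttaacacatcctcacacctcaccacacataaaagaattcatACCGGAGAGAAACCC
ZNF420: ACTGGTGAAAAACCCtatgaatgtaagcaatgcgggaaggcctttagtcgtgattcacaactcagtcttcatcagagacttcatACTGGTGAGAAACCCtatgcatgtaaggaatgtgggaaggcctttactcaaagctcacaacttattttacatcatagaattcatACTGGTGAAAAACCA
ZNF208 lies at chr19:21973762-21973944 and ZNF724 at chr19:23222982-23223164 for these stretches, both on the minus strand, and ZNF420 at chr19:37127475-37127657 on the plus strand. Over the 183 bases ZNF208 and ZNF724, which lie in the same gene cluster, were identical at 82.0% of positions, and ZNF420, from another cluster, was identical to them at 69.4% and 68.9%. Among 1191 gaps between neighbouring linkers in the members' longest coding exons, 64.0% were of 84 bases. The authors' counting dropped reads that map to several places. In 10 of 237 members, more than 10% of the 75-base words in the exons occurred more than once in the genome. Overlap with exons of another gene of GENCODE 44 covered more than 10% of the exon length in 58. That set holds genes of every type, so the other gene need not be among the genes counted.

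The libraries held 47242379 to 58159937 counted reads, and the members together took 0.275% to 0.341% of them. METTL3, the target of the inhibitor, was at 57.3, 50.8 and 54.0 CPM with DMSO and 80.8, 78.0 and 79.7 CPM under STM2457 in SK-N-BE2, and at 40.4, 43.99 and 36.8 against 77.3, 75.5 and 80.4 CPM in NGP. The inhibitor acts on the protein, so the transcript does not check the labels. The summed level of 8 adrenergic neuroblastoma markers was 5966 to 7129 CPM in SK-N-BE2 and 5158 to 6715 CPM in NGP and overlapped between treatments in both lines. Most of that sum was MYCN, at a mean of 4434 CPM in SK-N-BE2 and 3970 CPM in NGP with DMSO, and single markers moved: in SK-N-BE2 the mean of DBH was 35.3 CPM in controls and 13.5 CPM under STM2457, and in NGP that of GATA2 was 121 and 269 CPM. TH was at a mean of 0.512 CPM in NGP with DMSO. The summed level of 11 markers of fibroblast, endothelial, blood and epithelial cells was 390 to 417 CPM with DMSO and 485 to 534 CPM with STM2457 in SK-N-BE2 and 255 to 269 CPM against 500 to 554 CPM in NGP. Most of the SK-N-BE2 sum was THY1, at a mean of 341 CPM with DMSO and 435 CPM with STM2457. Means of COL1A1, PDGFRA, PDGFRB and PTPRC were also higher there with STM2457, and those of PECAM1, CDH5, CD14, EPCAM and KRT18 were lower. COL1A2 had only 2 reads with DMSO and 4 with STM2457 in that line. In NGP the mean of PDGFRB was 29.6 CPM with DMSO and 141 CPM with STM2457 and that of COL1A1 29.8 and 124 CPM, while PTPRC and PECAM1 had no read. PDGFRA was also higher in NGP (132 and 194 CPM), while THY1 (69.9 and 64.6 CPM) and EPCAM (1.85 and 1.42 CPM) were lower. The part of these shifts in the results below was not tested, and in bulk RNA fewer cells of a type and less RNA per cell cannot be told apart. NGP DMSO replicate 1 stood apart from the other NGP DMSO libraries in the members' summed level.

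In SK-N-BE2 the zinc finger genes moved in both directions, with more falls than rises. Of 213 members tested, 117 changed at an adjusted p under 0.05 in edgeR's quasi-likelihood test, 78 lower and 39 higher with STM2457. Among all 14013 genes tested in this line 54.7% were called, 27.8% lower and 26.9% higher, so the members' share of calls, 54.9%, was that of the background, while 36.6% of members were lower and 18.3% higher. The median log2 fold change of the members was -0.18, against -0.02 over all genes tested. Zinc finger genes named by the same pattern on other chromosomes gave 78 lower and 42 higher of 217, and other genes of chromosome 19 gave 257 lower and 140 higher of 737. A surplus of falls was also present in both comparison sets, and none of these differences between sets was tested.

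In NGP fewer members passed the test. Of 192 tested, 63 changed, 41 lower and 22 higher (32.8%), where 41.7% of all 13610 genes tested were called, 22.2% lower and 19.4% higher. The median log2 fold change was -0.15 against -0.03 over all genes tested. Without NGP DMSO replicate 1 the count was 88, 63 lower and 25 higher, in a fit that called 57.3% of all genes. It was 31 without DMSO replicate 3, 28 without STM2457 replicate 1, 40 without STM2457 replicate 2 and 27 without STM2457 replicate 3, where the same fits called 31.6%, 27.7%, 32.9% and 28.4% of all genes. The median was -0.07 without DMSO replicate 2.

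Ordered along the chromosome, 1 block held 20 of the 39 rises in SK-N-BE2 and 10 of the 22 in NGP. Members were joined into a cluster where the gap to the next member was at most 1 Mb, which gave 16 clusters. The fifth from the short-arm end spans chromosome 19 from 19668796 to 23945159 (GRCh38), from ZNF101 to ZNF726, on the short-arm side of the centromere, and holds 36 members, of which 29 reached 1 CPM. It is called the centromere-side cluster here and was singled out after its values were seen. In SK-N-BE2, 20 of its 28 tested members rose and 2 fell, with a median log2 fold change of 0.74, while outside it 19 of 185 rose and 76 fell, with a median of -0.26. Of the rises in the cluster, ZNF208 and ZNF100 reached 1 CPM only in SK-N-BE2 with STM2457. They passed the threshold through the group in which they were high. In NGP, 10 of its 24 tested members rose and 2 fell, with a median of 0.44, while outside it 12 of 168 rose and 39 fell, with a median of -0.22. The number of NGP members that rose in the cluster was 5 without DMSO replicate 3, without STM2457 replicate 1 or without STM2457 replicate 2, and 4 without STM2457 replicate 3. Without NGP DMSO replicate 1 it stayed at 10, with a median of 0.34.

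**Figure D1:**
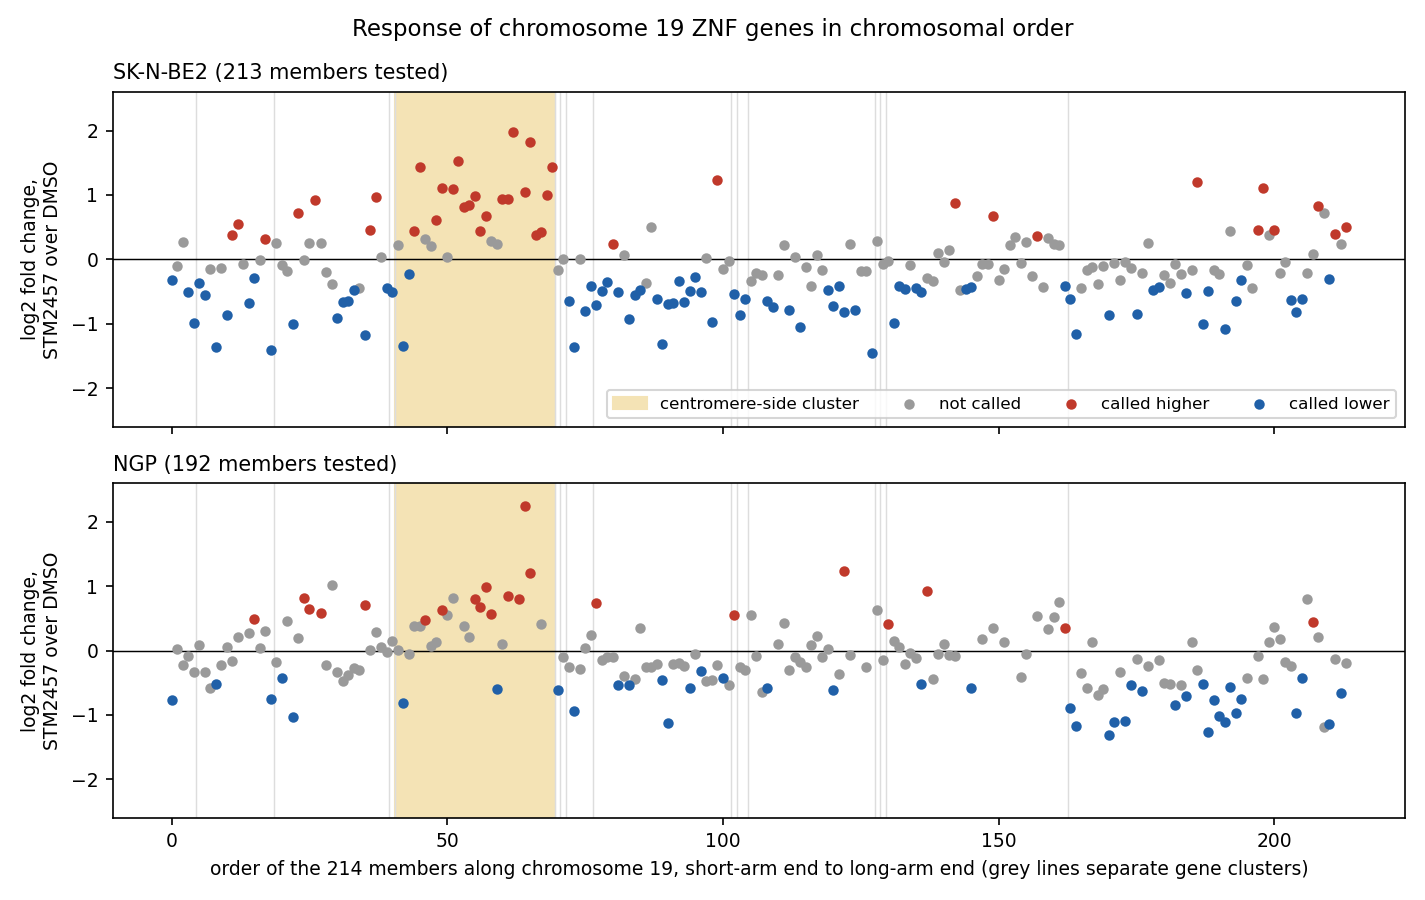
Each point is 1 of the 214 members, placed by its order along chromosome 19 on the x axis and by its log2 fold change (STM2457 over DMSO) on the y axis, for SK-N-BE2 (top) and NGP (bottom); red and blue points were called higher and lower by edgeR, grey points were not called, and the shaded block is the centromere-side cluster. In SK-N-BE2 20 of the 28 tested points in the block are red, against 19 of 185 outside it.

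The summed level of the cluster followed the same direction in each library. In SK-N-BE2 its 36 members summed to 339, 301 and 324 CPM with DMSO and to 442, 493 and 476 CPM with STM2457. In NGP they summed to 176, 247 and 230 CPM with DMSO and to 304, 297 and 297 CPM with STM2457. In both lines every treated library lay above every control library, and the lowest NGP control was replicate 1. The other 201 members summed to 3091, 3021 and 3069 CPM with DMSO and to 2576, 2551 and 2500 CPM under STM2457 in SK-N-BE2. In NGP they summed to 2628, 2952 and 2809 CPM against 2509, 2489 and 2512 CPM. Here every treated library lay below every control library.

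**Figure D2:**
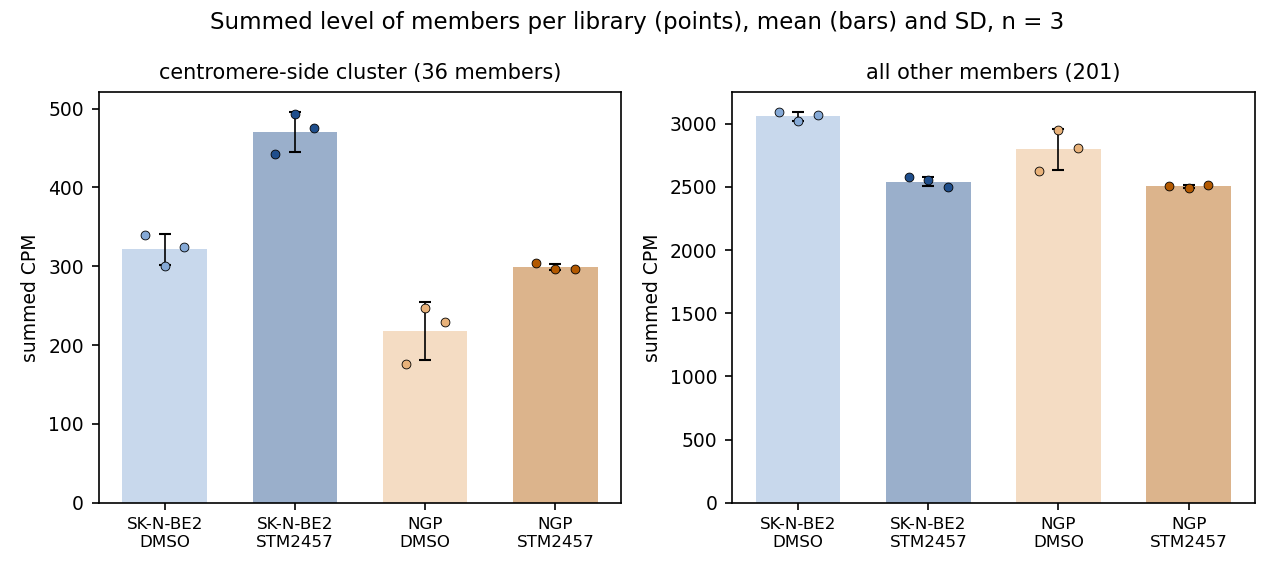
Points are the summed CPM of the centromere-side cluster (left) and of all other members (right) in each library, bars are group means and error bars the SD of 3 replicates; both y axes start at 0. The cluster's sum was higher with STM2457 in both lines, at 442 to 493 CPM against 301 to 339 CPM in SK-N-BE2, and the sum outside it was lower.

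The promoters of the cluster share a stretch of letters, which was not used to choose the cluster. Genes of a cluster arose by tandem duplication, so their windows are not independent of one another. RefSeq's table of promoters (GRCh38.p14, windows of 300 bases that reach from upstream of a gene's start to just past it) held 27 windows for 26 of the 29 cluster members above threshold. The letters CCAAT, on either strand, were in 26 of the 27 windows (96.3%), against 43.3% of 215 windows of the other members above threshold and 34.6% of all 35116 windows. The longer word CCAATCAG, chosen after it was seen in the ZNF431 window, contains CCAAT and was in the same number of windows, 96.3%, against 12.1% of the other members' windows and 3.97% of all. CACGTG, the E-box bound by MYC proteins, was in none of the 27 windows, against 5.12% of the other members' windows and 7.26% of all, and TGACGT, the core of the cAMP response element, was in none against 14.4% and 7.98%. The windows of ZNF431, ZNF724 and ZNF43, which rose in both lines, are shown with those of ZNF14, a cluster member that fell in both lines, and ZNF181, a member outside the cluster that fell in both lines. CCAAT, or ATTGG where it lies on the other strand, is in capitals.
ZNF431: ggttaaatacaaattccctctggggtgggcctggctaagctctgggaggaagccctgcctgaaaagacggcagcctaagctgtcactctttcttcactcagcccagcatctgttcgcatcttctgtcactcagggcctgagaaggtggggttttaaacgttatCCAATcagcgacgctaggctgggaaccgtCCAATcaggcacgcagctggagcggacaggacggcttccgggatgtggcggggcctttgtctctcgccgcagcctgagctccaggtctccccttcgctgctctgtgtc
ZNF724: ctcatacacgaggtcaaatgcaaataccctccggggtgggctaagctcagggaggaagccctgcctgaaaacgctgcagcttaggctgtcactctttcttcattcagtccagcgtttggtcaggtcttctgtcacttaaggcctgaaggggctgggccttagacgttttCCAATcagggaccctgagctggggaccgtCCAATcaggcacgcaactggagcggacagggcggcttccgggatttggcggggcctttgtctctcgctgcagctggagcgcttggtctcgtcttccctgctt
ZNF43: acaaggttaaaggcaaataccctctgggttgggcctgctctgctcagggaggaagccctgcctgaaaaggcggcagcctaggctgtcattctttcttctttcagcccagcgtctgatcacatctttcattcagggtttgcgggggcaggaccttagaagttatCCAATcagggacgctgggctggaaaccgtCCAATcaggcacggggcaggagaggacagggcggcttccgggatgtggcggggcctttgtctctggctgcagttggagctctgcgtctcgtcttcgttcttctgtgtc
ZNF14: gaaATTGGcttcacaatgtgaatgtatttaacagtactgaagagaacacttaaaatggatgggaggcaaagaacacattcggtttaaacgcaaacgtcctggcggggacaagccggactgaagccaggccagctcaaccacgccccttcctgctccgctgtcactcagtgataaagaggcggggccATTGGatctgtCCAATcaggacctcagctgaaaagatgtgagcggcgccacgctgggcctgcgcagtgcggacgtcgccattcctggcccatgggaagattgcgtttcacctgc
ZNF181: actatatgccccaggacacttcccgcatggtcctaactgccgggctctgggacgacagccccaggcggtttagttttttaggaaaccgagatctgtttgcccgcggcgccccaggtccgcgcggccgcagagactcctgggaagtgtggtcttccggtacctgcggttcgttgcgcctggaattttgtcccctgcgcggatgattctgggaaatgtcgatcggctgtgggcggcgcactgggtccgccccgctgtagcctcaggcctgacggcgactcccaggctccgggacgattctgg
The windows lie at chr19:21141790-21142089 (ZNF431, plus strand), chr19:23250345-23250644 (ZNF724, minus), chr19:21836133-21836432 (ZNF43, minus), chr19:19733063-19733362 (ZNF14, minus) and chr19:34733993-34734292 (ZNF181, plus). ZNF431, ZNF724 and ZNF43 each hold CCAAT as a pair of copies, ZNF14 holds 3 copies, and the ZNF181 window holds none. CCAATCAG was in the window of ZNF14, which fell, as in those of its neighbours that rose. It was also in the windows of ZNF101, ZNF90 and ZNF626, which were not called in either line. The median GC content of the windows was 56.7% in the cluster and 61.3% for the other members above threshold, with a median of 10 against 22 CpG dinucleotides. A match is a description of letters and not of a bound site.

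The transcripts of the cluster also differ in base composition. The median GC content of their exons was 38.5%, against 44% for members outside and 48.5% for all genes tested, and GGACT, the most frequent form of the m6A consensus, occurred at a median of 0.306 per kilobase of exon, against 0.889 outside and 0.924 in all genes tested. With offsets that remove each library's trend with GC content, the cluster gave 20 rises and 2 falls in SK-N-BE2 and 13 rises and 2 falls in NGP. With offsets for exon length the SK-N-BE2 counts were 21 and 2, those of NGP 11 and 2. Other genes in the lowest decile of GC content in SK-N-BE2 (1379 genes) had a median log2 fold change of -0.02, against 0.67 for the 23 members there. Across all 213 members of SK-N-BE2, the log2 fold change had a rank correlation of -0.17 with GC content and of -0.18 with GGACT per kilobase, and outside the cluster (185 members) these were 0.07 and 0.04. Across the 192 members of NGP the correlations were -0.29 and -0.17, and outside the cluster (168 members) -0.15 and 0.01. Genes share base composition with their neighbours, so these correlations are descriptions without a p.

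The 4 largest rises in SK-N-BE2 among members that averaged 2 CPM or more in a group of that line all came from the cluster. ZNF208, whose protein has 36 fingers, the most of any member, was at 0.769, 0.403 and 0.535 CPM with DMSO and at 2.07, 2.5 and 2.42 CPM with STM2457, or 1.98 on the log2 scale (SE 0.290; adjusted p = 7.52e-05 in edgeR). The groups did not overlap, which the rule for naming members by size required. ZNF208 reached 1 CPM only in this treated group. In SK-N-BE2, ZNF208, ZNF724 and ZNF85 averaged 2 CPM or more only with STM2457. They thus entered the ranking through the group in which they were high. Still, 20.5% of the exon length of ZNF208 is shared with another gene on its strand, so its counts are uncertain. ZNF724 rose from 1.43, 1.05 and 1.17 CPM to 4.43, 4.57 and 4.28 CPM (log2 fold change 1.82, SE 0.199, adjusted p = 5.92e-06), with 44.8% of its exon length shared on the same strand. ZNF85 rose from 1.78, 1.01 and 1.38 CPM to 3.47, 5.08 and 3.86 CPM, by 1.53 on the log2 scale (SE 0.241, adjusted p = 0.000139). ZNF93, which binds and represses L1 retrotransposons, rose from 4.41, 4.63 and 4.03 CPM to 12.5, 12.3 and 11.6 CPM, by 1.44 on the log2 scale (SE 0.124, adjusted p = 7.57e-07). ZNF91, a repressor of SVA retrotransposons and a paralog of ZNF93 in the same cluster, was at 28.3, 23.4 and 24.1 CPM with DMSO and at 31.8, 34.6 and 34.3 CPM with STM2457 (0.37, adjusted p = 0.00597), and it was chosen after its values were seen. ZNF93 and ZNF91 overlap no other exon by more than 10%. Both rose without overlap between the groups, which the naming rule required of ZNF93.

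Exactly 7 members rose in both lines, and all 7 lie in the cluster: ZNF737, ZNF431, ZNF708, ZNF738, ZNF43, ZNF730 and ZNF724. In NGP, ZNF730 was under 1 CPM in both groups. Its mean there was 0.124 CPM with DMSO (19 reads in all) and 0.608 CPM with STM2457 (87 reads). The members tested in both lines numbered 191, and among all 12952 genes tested in both lines 10.5% were higher in both. The NGP calls of ZNF737 and ZNF708 (adjusted p = 0.0392 and 0.0356) were both lost without NGP DMSO replicate 3 or any of the 3 STM2457 replicates of NGP, at adjusted p-values up to 0.116 and 0.0937. Of the 7, 4 were called in both lines without NGP STM2457 replicate 3 and 5 without each of the other 3 of these libraries, while the SK-N-BE2 call of ZNF708 was lost without STM2457 replicate 1 or 2. ZNF431 was at 27.3, 23.6 and 28.4 CPM with DMSO and 50.3, 57.9 and 53.1 CPM under STM2457 in SK-N-BE2, 0.99 higher on the log2 scale (SE 0.0970; adjusted p = 2.42e-06 in edgeR). In NGP it was at 20.1, 29.8 and 27.2 CPM against 46.0, 44.6 and 46.0 CPM, a log2 fold change of 0.80 (SE 0.151, adjusted p = 0.00343). No treated library of ZNF431 overlapped a control library in either line, as the naming rule required. ZNF738 rose from 14.9, 14.5 and 16.5 CPM to 21.9, 27.2 and 26.0 CPM in SK-N-BE2 (0.67, adjusted p = 0.000184) and from 19.3, 25.7 and 26.3 CPM to 46.7, 50.2 and 47.4 CPM in NGP (0.99, adjusted p = 0.000808). ZNF43 rose from 4.41, 3.28 and 4.24 CPM to 6.98, 8.34 and 8.22 CPM in SK-N-BE2 (0.94, adjusted p = 0.000201) and from 1.53, 1.74 and 2.1 CPM to 3.25, 2.95 and 3.69 CPM in NGP (0.85, adjusted p = 0.0124). Its NGP call was lost without STM2457 replicate 3, at an adjusted p of 0.0598. In NGP ZNF724 rose from 1.53, 2.27 and 2.31 CPM to 4.74, 4.92 and 4.63 CPM (1.20, adjusted p = 0.00246). Its groups did not overlap, again a condition of the naming rule.

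**Figure D3:**
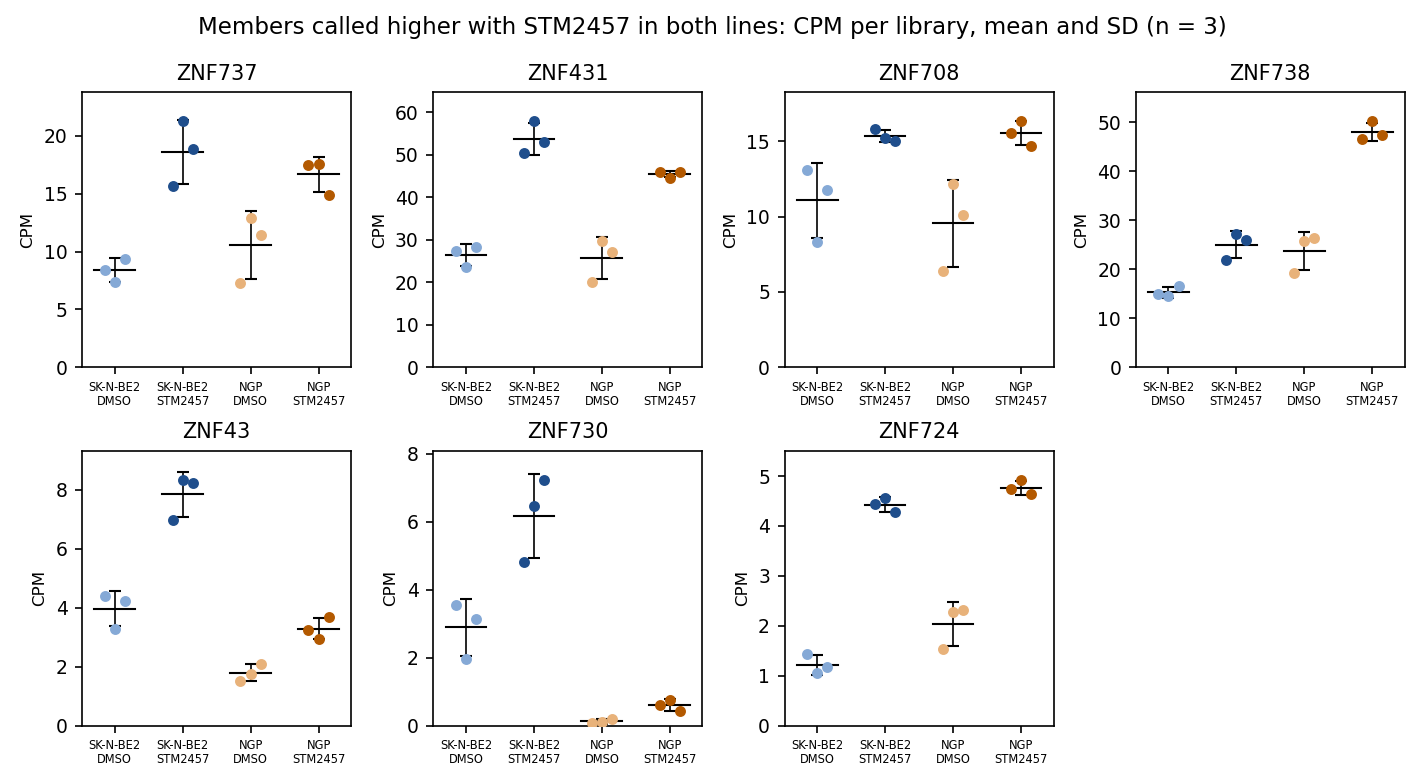
Each panel shows 1 of the 7 members that were called higher in both lines, with the CPM of each library as points (y axis, from 0), the group mean as a line and the SD of 3 replicates as error bars. ZNF431 sits at 50.3 to 57.9 CPM with STM2457 against 23.6 to 28.4 CPM with DMSO in SK-N-BE2, and in every panel the treated points lie above the control points of the same line.

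Not every gene of the cluster rose. ZNF14 was at 25.9, 24.9 and 23 CPM with DMSO and 9.47, 9.96 and 10.2 CPM under STM2457 in SK-N-BE2, a fall by 1.35 on the log2 scale (SE 0.101, edgeR adjusted p = 2.21e-07), and at 9.25, 9.57 and 11.8 CPM against 6.15, 4.56 and 6.88 CPM in NGP (-0.82, SE 0.189, adjusted p = 0.00884). ZNF14 and ZNF506, the other cluster member that fell in SK-N-BE2 (-0.22, adjusted p = 0.0466), both lie near the telomere-side end of the cluster, beside ZNF101, which was not called in either line. In NGP the fall beside ZNF14 was that of ZNF429 (-0.60, adjusted p = 0.00968), which lies in the middle of the cluster between ZNF493 and ZNF100. The call of ZNF506 was lost whichever of the 6 libraries of SK-N-BE2 was left out, at adjusted p-values from 0.0522 to 0.168, which left ZNF14 as the only fall of the cluster there. That of ZNF429 was lost without 2 of the 6 NGP libraries in turn, at adjusted p-values up to 0.0517. ZNF14, ZNF506, ZNF101 and ZNF429 were chosen here after their values were seen. Another 7 members of the cluster were below 1 CPM in all groups, and they are neighbours, from ZNF257 to ZNF728, with ZNF492 as the exception among them. ZNF492 reached 1 CPM only in NGP, where it rose from 1.73, 2.97 and 2.04 CPM to 3.67, 4.30 and 4.003 CPM (0.80, adjusted p = 0.0256). That call was lost in 4 of the 6 fits without 1 NGP library, at adjusted p-values up to 0.0859. Of the 75-base words in the exons of ZNF492, 32.1% occur more than once in the genome, so its counts are uncertain.

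Outside the cluster, falls prevailed in most clusters of SK-N-BE2, where 27.8% of all genes tested were lower. On the long arm, the cluster from ZNF565 to ZNF573 had 17 falls and 2 rises among 25 tested members, that from ZNF575 to ZNF296 had 10 falls and no rise among 23, and that from ZNF302 to ZNF792 had 4 falls among 5. In NGP, where 22.2% of all genes tested were lower, most falls lay in the last cluster of the long arm, from ZNF628 to ZNF446. It had 21 falls and 1 rise among 49 tested members and a median log2 fold change of -0.53. The cluster from ZNF565 to ZNF573 had 7 falls and 1 rise among 25 in NGP, with 23 of the 25 below 0 and a median of -0.25. That last cluster had 16 falls and 7 rises among 51 members in SK-N-BE2, with a median of -0.22. Of the 11 members of it called for the difference between the lines, 10 had the higher log2 fold change in SK-N-BE2. This can be a smaller fall, as for ZNF773 and ZNF584.

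**Figure D4:**
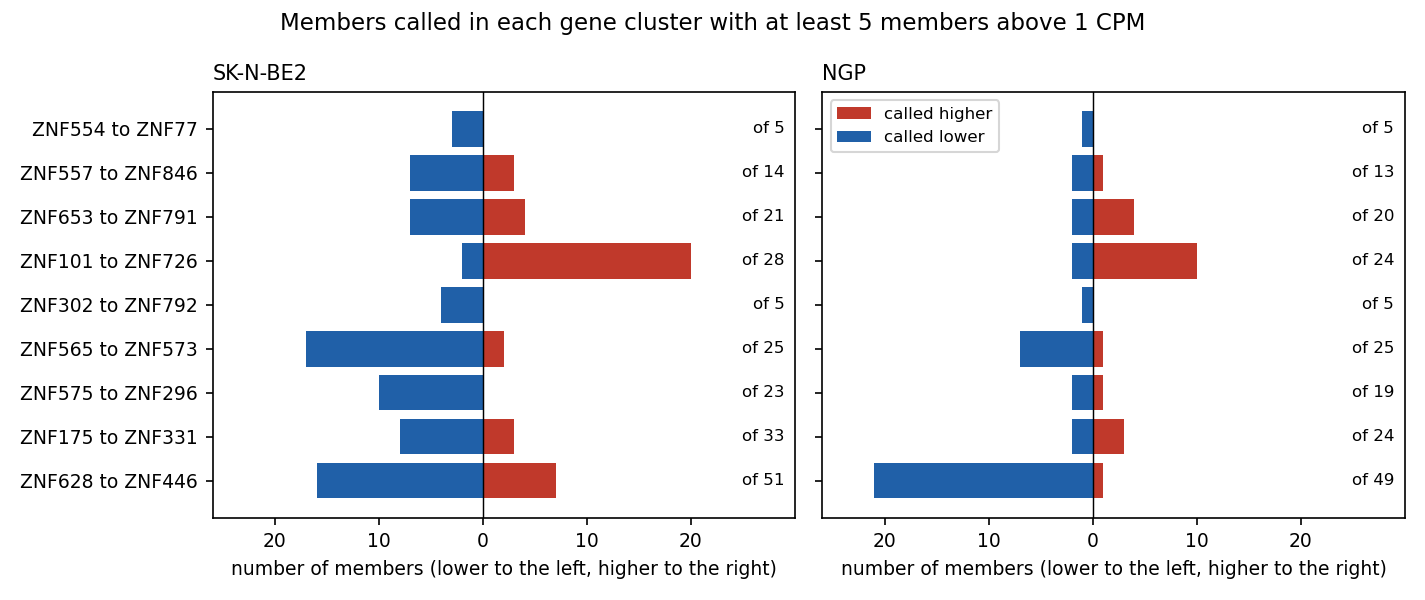
Bars give the number of members called higher (red, to the right) and lower (blue, to the left) in SK-N-BE2 (left) and NGP (right) for each gene cluster with at least 5 members above 1 CPM, named by its first and last member, with the number tested at the right. The cluster from ZNF101 to ZNF726 has 20 and 10 rises in the 2 lines, and the cluster from ZNF628 to ZNF446 has 21 falls in NGP.

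The 4 largest falls in SK-N-BE2 among members with that level were spread over 3 clusters. ZNF296, which has no KRAB match, fell from 6.05, 5.29 and 10.2 CPM to 2.92, 2.83 and 2.34 CPM, by 1.45 on the log2 scale (SE 0.228, edgeR adjusted p = 0.000135). ZNF846 fell from 5.65, 5.68 and 5.45 CPM to 1.98, 2.09 and 2.44 CPM (-1.40, adjusted p = 1.26e-05). ZNF181 fell from 34.2, 39.8 and 35.5 CPM to 15.8, 13.1 and 14.6 CPM (-1.37, SE 0.106, adjusted p = 2.87e-07), and ZNF558 from 57.1, 56.2 and 54.7 CPM to 20.7, 24.4 and 22.3 CPM (-1.36, SE 0.0912, adjusted p = 8e-08). In these 4 genes no treated library reached a control library, which was a condition of the naming rule. The largest called changes of 3 further clusters were those of ZNF568, which had a log2 fold change of -1.31 (adjusted p = 1.86e-06) and shares 34.4% of its exon length with another gene, of ZNF77, with one of -0.995 (adjusted p = 3.74e-06) and of ZNF577, with one of -0.99 (adjusted p = 0.000105).

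Of the 4 largest falls in NGP among members that averaged 2 CPM or more in an NGP group, 3 lie in the last cluster of the long arm. ZNF787, which has no KRAB match, was at 52.1, 30.6 and 40.3 CPM with DMSO and 14.6, 23.3 and 12.4 CPM with STM2457 (log2 fold change -1.32, SE 0.263, edgeR adjusted p = 0.00457). ZNF773 fell from 5.94, 5.63 and 5.83 CPM to 2.97, 1.99 and 2.41 CPM (-1.26, SE 0.194, adjusted p = 0.00125), with 22.9% of its exon length shared on its strand. ZNF584 fell from 12.6, 12.9 and 11.9 CPM to 5.66, 5.67 and 5.96 CPM (-1.13, adjusted p = 0.000252). ZNF420, a KRAB protein known to restrain p53, fell from 30.1, 37.1 and 37.4 CPM to 16.1, 15.2 and 17.5 CPM (-1.13, SE 0.129, adjusted p = 0.000287). None of these groups overlapped, as the naming rule required. Of the 4 largest NGP rises among such members, ZNF724, ZNF738 and ZNF43 lie in the centromere-side cluster and ZNF432 outside it. In NGP, ZNF43 averaged 2 CPM or more only with STM2457. ZNF432 rose from 3.87, 3.97 and 4.06 CPM to 8.29, 7.66 and 7.04 CPM (0.92, adjusted p = 0.00159), with 13.6% of its exon length shared with a gene on the other strand.

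Of the 191 members tested in both lines, 28 were lower in both, of which 1, ZNF14, lies in the centromere-side cluster. Among all 12952 genes tested in both lines, 10.8% were lower in both. Together with the 7 that rose in both, 35 of these 191 members changed in the same direction, where 21.3% of all genes did. That count was 20 without NGP DMSO replicate 3, 19 without STM2457 replicate 1, 21 without STM2457 replicate 2 and 18 without STM2457 replicate 3 of NGP, and 45 without NGP DMSO replicate 1. By the smaller change of the 2 lines, ZNF416 led, with 7.76, 8.94 and 6.60 CPM against 3.79, 4.24 and 3.26 CPM in SK-N-BE2 (-1.08, edgeR adjusted p = 9.13e-05) and 5.46, 4.36 and 5.12 CPM against 2.01, 2.27 and 2.72 CPM in NGP (-1.12, adjusted p = 0.00228). ZNF441 followed, with 14.8, 14.3 and 12.2 CPM against 6.78, 6.72 and 7.50 CPM (-1.01, adjusted p = 1.38e-05) and 8.99, 16.6 and 12.2 CPM against 6.71, 5.67 and 6.53 CPM (-1.03, adjusted p = 0.00677). ZNF181 in NGP fell from 49.4, 58.3 and 57.1 CPM to 27.9, 27.9 and 32.1 CPM (-0.93, adjusted p = 0.000451), and ZNF787 in SK-N-BE2 from 33.2, 35.3 and 55.8 CPM to 28.5, 19.1 and 22.0 CPM (-0.87, adjusted p = 0.00122). None of these groups overlapped, as the naming rule required.

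ZNF274, the member known to bind the 3′ exons of other zinc finger genes and to recruit SETDB1 there, was also lower in both lines. It was at 20.5, 21.3 and 19.1 CPM with DMSO and 14.2, 12.5 and 14.2 CPM under STM2457 in SK-N-BE2 (-0.61 on the log2 scale, SE 0.104; adjusted p = 0.000245 in edgeR). In NGP it was at 23.5, 24.2 and 20.9 CPM against 17.5, 16.2 and 18.2 CPM (-0.43, SE 0.117, adjusted p = 0.0183). The groups did not overlap in either line. The NGP call was lost without DMSO replicate 2 or any of the 3 STM2457 replicates, at adjusted p-values up to 0.0835.

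Across the 191 members tested in both lines the log2 fold changes had a rank correlation of 0.43, which was 0.62 over the 23 in the cluster and 0.31 over the 168 outside it. These points share their cluster and base composition, so no p is given. The difference between the lines' log2 fold changes (SK-N-BE2 minus NGP) was called for 42 of 214 members, positive for 17 and negative for 25. Among all 14731 genes tested 30.9% were called, 17% positive and 13.9% negative. The sign does not give the size of a response, since a member that fell less in SK-N-BE2 has a positive difference.

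**Figure D5:**
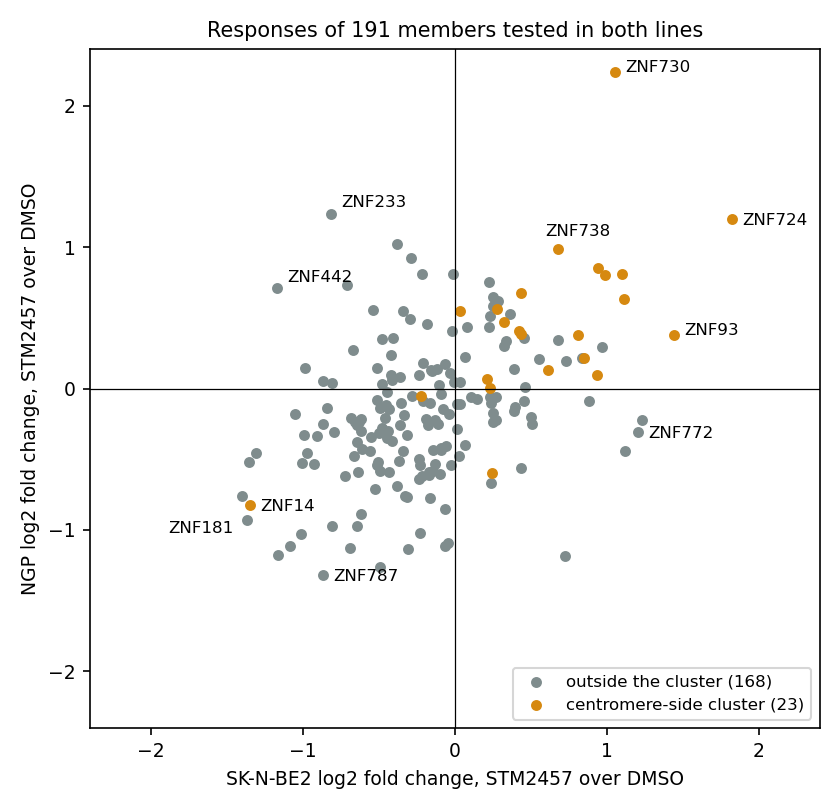
Each point is 1 of the 191 members tested in both lines, with its log2 fold change (STM2457 over DMSO) in SK-N-BE2 on the x axis and in NGP on the y axis; orange points are the 23 members of the centromere-side cluster and grey points the other 168. Most orange points lie above 0 on both axes, and ZNF14 lies in the lower left.

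Opposite responses were called for 6 of the 191 members tested in both lines, all lower in SK-N-BE2 and higher in NGP (ZNF121, ZNF442, ZNF565, ZNF546, ZNF233 and ZNF331). Among all genes tested in both lines 2.25% did so and 2.72% did the reverse, which no member did. ZNF565 was at 4.79, 4.21 and 4.17 CPM against 2.46, 3.34 and 2.47 CPM in SK-N-BE2 (log2 fold change -0.71, edgeR adjusted p = 0.00497) and at 3.08, 2.99 and 2.65 CPM against 5.62, 4.26 and 4.89 CPM in NGP (0.74, adjusted p = 0.0122). ZNF442 went from 2.03, 2.27 and 1.72 CPM to 0.886, 0.664 and 1.18 CPM (-1.17, adjusted p = 0.00301) and from 2.07, 1.92 and 1.73 CPM to 3.78, 2.5 and 3.21 CPM (0.71, adjusted p = 0.0332). ZNF546 went from 10.9, 10.4 and 9.43 CPM to 6.87, 7.21 and 7.58 CPM (-0.54, adjusted p = 0.00187) and from 4.47, 4.30 and 3.52 CPM to 6.56, 5.63 and 6.17 CPM (0.55, adjusted p = 0.0277). ZNF331, an imprinted gene, went from 31.9, 32.2 and 32.6 CPM to 23.1, 26.1 and 25.6 CPM (-0.41, adjusted p = 0.00182) and from 20.9, 22.5 and 22.2 CPM to 29.5, 26.8 and 29.01 CPM (0.36, adjusted p = 0.0267). In all 4 the groups were apart in both lines, which the naming rule required. The span of ZNF565 contains ZNF146 on the other strand, and 11.9% of the exon length of ZNF565 is shared with a gene of that strand. The NGP calls of ZNF565, ZNF442, ZNF546 and ZNF331 were each lost without STM2457 replicate 1 and without DMSO replicate 3, and those of ZNF442, ZNF546 and ZNF331 also without STM2457 replicate 3, at adjusted p-values up to 0.142. That of ZNF442 was further lost without DMSO replicate 2.

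Among members that met the naming rule, the largest positive differences (SK-N-BE2 minus NGP) were those of ZNF586, ZNF772 and ZNF781. These rose in SK-N-BE2 and were not called in NGP. ZNF586 rose from 3.72, 3.78 and 4.36 CPM to 7.92, 9.71 and 8.76 CPM in SK-N-BE2 and was at 1.21, 1.37 and 1.25 CPM against 0.641, 1.18 and 1.05 CPM in NGP, which differ by 1.57 on the log2 scale (SE 0.294; adjusted p = 0.00119 in edgeR). ZNF772 rose from 4.93, 4.55 and 3.73 CPM to 10.7, 11.1 and 9.38 CPM and was at 2.26, 3.81 and 3.56 CPM against 2.69, 2.29 and 2.96 CPM (difference 1.52, adjusted p = 0.00113). ZNF781, which has no coding sequence in GENCODE 44, rose from 1.21, 1.21 and 1.19 CPM to 2.86, 3.36 and 2.46 CPM and was at 4.63, 4.68 and 4.88 CPM against 4.04, 4.39 and 3.96 CPM (difference 1.46, adjusted p = 0.00046). ZNF586 and ZNF772 both lie in the last cluster, where falls prevailed in NGP. In the other direction, ZNF233 fell from 5.59, 5.43 and 5.22 CPM to 3.18, 2.99 and 3.29 CPM in SK-N-BE2, while in NGP it was at 0.159, 0.293 and 0.195 CPM against 0.555, 0.556 and 0.454 CPM (difference -2.04, adjusted p = 0.000454). Its NGP rise (adjusted p = 0.0386) was lost without any 1 library other than DMSO replicate 2, at adjusted p-values up to 0.120.

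The lines also differ in which of these genes they express. In both lines 183 members reached 1 CPM, 29 did so only in SK-N-BE2 and 2, ZNF878 and ZNF492, only in NGP. Of the 29, 7 had no read in any of the 6 NGP libraries, where 3 reads would be 0.0583 to 0.0642 CPM: ZNF560, ZNF285, ZNF229, ZNF808, ZNF83, ZNF816 and ZNF264. ZNF264 was at 23.3, 18.8 and 22.1 CPM with DMSO in SK-N-BE2 and at 15.99, 15.6 and 16.03 CPM with STM2457 (log2 fold change -0.47, edgeR adjusted p = 0.00182). ZNF69 rose in SK-N-BE2 from 6.57, 4.79 and 4.97 CPM to 9.27, 10.5 and 12.0 CPM (0.92, adjusted p = 0.000227), and in NGP it had no read with DMSO and 0.171, 0.0428 and 0.0394 CPM with STM2457.

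Per kilobase of exon, ZNF146 had the highest level of all members in both lines' controls, at 69.5 CPM per kilobase in SK-N-BE2 and 61.2 in NGP. ZNF146 consists almost only of fingers, has no KRAB match and shares 10.8% of its exon length with a gene on the other strand. It went from 288, 319.7 and 257 CPM to 211, 216 and 204 CPM in SK-N-BE2 (-0.49, edgeR adjusted p = 0.000546), without overlap, and in NGP from 246, 264 and 251 CPM to 244, 216 and 243 CPM (-0.14, adjusted p = 0.260). ZNF358 followed in SK-N-BE2 with 39.0 CPM per kilobase and ZNF121 with 20.5, and in NGP ZNF428 with 25.1 and ZNF358 with 24.6. ZNF121 was at 149, 138 and 160 CPM against 119, 131 and 124 CPM in SK-N-BE2 (-0.30, adjusted p = 0.00833) and at 98.2, 128 and 108 CPM against 154, 152 and 171 CPM in NGP (0.49, adjusted p = 0.0117), a call lost in SK-N-BE2 without STM2457 replicate 1 and in NGP without DMSO replicate 3 or STM2457 replicate 3. ZNF358 and ZNF428 have GC-rich exons (68.8% and 58.9%) and spread widely within groups: ZNF358 was at 78.4, 57.2 and 108 CPM with DMSO and 77.3, 42.8 and 50.0 CPM under STM2457 in SK-N-BE2, overlapping groups whose call (adjusted p = 0.0416) was lost without DMSO replicate 1 or 3 or without STM2457 replicate 2 or 3, at adjusted p-values up to 0.265. It was also lost with DESeq2 (adjusted p = 0.203), robust dispersion (0.230), the joint fit of 12 libraries (0.174) and exon length offsets (0.0778). ZNF428 was not called in either line.

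Among transcripts of genes whose proteins act with KRAB zinc fingers, more rose than fell in both lines. Of 21 genes in this list, 13 rose and 2 fell in SK-N-BE2, with a median log2 fold change of 0.37, and 10 rose and 1 fell in NGP, with a median of 0.29. Those are 71.4% and 52.4% of the list called, where 54.7% of all genes were called in SK-N-BE2 (26.9% higher) and 41.7% in NGP (19.4% higher). The NGP count of 11 was 6 without DMSO replicate 3, 5 without STM2457 replicate 1, 7 without STM2457 replicate 2 and 6 without STM2457 replicate 3, and 15 without DMSO replicate 1. TRIM28, the corepressor itself, was at 183, 177 and 184 CPM with DMSO and 255, 227 and 232 CPM under STM2457 in SK-N-BE2 (0.36, SE 0.0799; adjusted p = 0.00197 in edgeR). In NGP TRIM28 was at 290.2, 183 and 209 CPM against 247, 275 and 246 CPM (0.15, adjusted p = 0.500), where replicate 1 with DMSO was above all treated libraries; without it the adjusted p was 0.00348, and with GC offsets the log2 fold change was 0.40 (adjusted p = 0.00362). SETDB1, the histone methyltransferase, had a log2 fold change of -0.06 (adjusted p = 0.530) in SK-N-BE2 and 0.01 (adjusted p = 0.941) in NGP, at 79.8 to 87.9 CPM and 76.2 to 94.9 CPM over all libraries. DNMT1, the maintenance DNA methyltransferase, rose by 0.99 (adjusted p = 6.72e-07) and 0.58 (adjusted p = 0.00135), and CBX1, which encodes heterochromatin protein HP1 beta, by 0.94 (adjusted p = 1.19e-06) and 0.68 (adjusted p = 0.000959). CBX5, for HP1 alpha, rose by 0.87 in SK-N-BE2 (adjusted p = 1.13e-05) and was at 0.19 in NGP (adjusted p = 0.330). ATF7IP2 and SUV39H1 rose in both lines, by 0.43 and 0.57 in SK-N-BE2 and by 0.75 and 0.68 in NGP (adjusted p at most 0.00342).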

How the data were processed

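The 12 libraries of polyadenylated RNA were grouped by their titles. The deposited files hold whole-number read counts that are not normalized. Per the file headers, the authors used featureCounts 2.0.5 in paired mode and summed exons per gene name over the protein-coding genes of GENCODE 33 (GRCh38). No strand option was set and multi-mapping reads were dropped, so overlapping genes and near-identical copies can lose or share reads. Pairs were not merged, so 1 fragment can count as 2. Per the submitters' processing notes, FastQC 0.11.5, Trimmomatic 0.36, HISAT2 2.1.0 and Subread 1.5.3 were used.

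Each line was fitted separately with edgeR 4.0.16 in R 4.3.3 on 6 libraries, over all genes passing filterByExpr (minimum count 10). Scaling was by TMM, the test was the quasi-likelihood F test, and p-values were adjusted by Benjamini and Hochberg with 0.05 as the threshold. The contrast of both responses, taken as SK-N-BE2 minus NGP, used all 12 libraries. CPM used the TMM factors of these 12. Changes are relative, since no spike-in was used. Finger and KRAB patterns, exon overlap and repeated 75-base words came from GENCODE 44 and hg38, promoters from RefSeq.

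The members, the lists and the naming rule were chosen with earlier results of these data known. Members that averaged 2 CPM or more in a group of the line compared, called and without overlap between groups, were named by size. These were 4 rises and 4 falls per line, the same for both lines by the smaller change, up to 4 opposite responses, 3 each way for the difference (apart in at least 1 line), 3 by level per kilobase in each line, and the largest change per cluster of at least 5 tested members. Up to 3 corepressor genes per line, ZNF274, TRIM28, SETDB1 and METTL3 were also named. A marker on the adrenergic list is not reported here.

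Alternatives were DESeq2 1.42.0, its size factors, upper-quartile factors, other filters, a replicate block, a minimum change, robust dispersion, GC and length offsets, halved counts, a joint fit and leaving out each library. In simulated counts in which 200 genes had a log2 fold change of 1, the share of them recovered was 96.5% for SK-N-BE2 (13925 genes run), 90.4% for NGP (13519) and 67.7% for the difference (14478). The depth of 47242379 to 58159937 reads makes counting error small for genes of many reads. It limits genes of a few reads, and 3 replicates limit the rest.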

Additional observations from a re-analysis of the deposited data

Results flagged for a closer look

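The response to STM2457 differed between SK-N-BE2 and NGP for 42 of 214 members in edgeR's test of the difference itself (SK-N-BE2 minus NGP, adjusted over all genes). This was 19.6% of the members, below the 30.9% called among all 14731 genes tested. Dose and sequencing run differ between the lines and cannot be told apart from the line.

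The log2 fold change was lower in SK-N-BE2 than in NGP for 12 of the named members. This does not mean a weaker response: ZNF558 and ZNF568 fell in both lines, and more in SK-N-BE2. The difference in log2 fold change was -1.87 for ZNF442, -1.43 for ZNF565, -1.20 for ZNF432, -1.12 for ZNF577, -1.08 for ZNF546, -0.84 for ZNF568, -0.82 for ZNF558, -0.78 for ZNF121, -0.75 for ZNF331 and -0.65 for ZNF77. ZNF233 (-2.04) and ZNF69 (-4.18) are at under 1 CPM in NGP, and for ZNF69, with no read in NGP controls, the fitted value depends on the prior count and is no bound.

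The log2 fold change was higher in SK-N-BE2 for ZNF586 (difference 1.57), ZNF772 (1.52), ZNF781 (1.46), ZNF93 (1.08), ZNF584 (0.84) and ZNF773 (0.78). Of these, ZNF584 and ZNF773 fell in both lines, and less in SK-N-BE2. Their log2 fold changes were -0.31 and -0.50 there, against -1.13 and -1.26 in NGP. The call of ZNF773 (adjusted p = 0.0382) was lost when 9 of the 12 libraries were left out in turn, that of ZNF69 (adjusted p = 0.0385) for 6 and that of ZNF577 (adjusted p = 0.0241) for 3, the last without SK-N-BE2 DMSO replicate 2 and without SK-N-BE2 STM2457 replicate 1 or 3. The other named members kept their call for the difference whichever of the 12 was left out.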

How the results depend on the processing

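Against a minimum absolute log2 fold change of 1, 7 members were called in SK-N-BE2, 0 in NGP, 1 for the difference and 0 in both lines in the same direction. The centromere-side cluster then had 4 rises in SK-N-BE2 but 0 in NGP. In either line 0 corepressor genes were called. That test asks for more than a change from 0. Leaving out 1 library gave 96 to 114 members for SK-N-BE2, 27 to 88 for NGP and 18 to 45 for both lines, with 4 to 11 cluster rises and 5 to 15 corepressor genes in NGP. With a replicate block the counts were 113, 46 and 39 for SK-N-BE2, NGP and the difference. The numbers do not pair the samples (correlations of same-numbered deviations -0.08 to 0.09). Among the named members the block ended the NGP calls of ZNF846, ZNF442, ZNF546, ZNF331, ZNF233, ZNF568 and ZNF274 and the SK-N-BE2 call of ZNF584, at adjusted p-values from 0.0506 to 0.0777. Values not called changed sign for ZNF358 in NGP (0.12 with GC offsets), ZNF428 in SK-N-BE2 (-0.53 to 0.14 with a library left out), ZNF577 in NGP (-0.15 without DMSO replicate 1, 0.43 at most) and SETDB1 in NGP (-0.033 with GC offsets, -0.077 without DMSO replicate 1, -0.032 without STM2457 replicate 3, 0.083 at most). The cause was not tested. The other alternatives kept every count within 1.5 times, also over the 157 members with at most 10% of exon length overlapping or repeated, a limit chosen after seeing the data (87 and 48 called). Counts of the centromere-side cluster were also added after seeing the data.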

Other observations

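Both members with and members without a match to the KRAB pattern had more falls than rises, and the difference between these classes was not tested. In SK-N-BE2 33 of 179 members with a KRAB match rose and 67 fell, with a median log2 fold change of -0.18, and 5 of 33 members without a match rose and 11 fell, with a median of -0.18. In NGP 20 of 158 with a match rose and 34 fell (median -0.10), against 2 and 7 of 33 without one (median -0.26). The number of fingers had a rank correlation with the log2 fold change of 0.06 over 212 members in SK-N-BE2 and of 0.10 over 191 in NGP, and the mean control level one of -0.33 over 213 and -0.28 over 192. A control level enters both sides of the last relation.

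A chosen list of 16 zinc finger genes of the chromosome with other symbols (such as ZFP, ZSCAN, PEG and ZBTB names) gave no rise. Only 8 of them per line were tested at 1 CPM or more in a group, too few to describe all such genes. Among all genes tested, 26.9% were higher and 27.8% lower in SK-N-BE2, and 19.4% higher and 22.2% lower in NGP. Of 8 tested in SK-N-BE2, 5 fell: ZFP28, ZFP30, ZFP82, ZSCAN5A and ZSCAN18. In NGP 2 of 8 fell, ZFP28 (-0.79) and ZSCAN18 (-0.78), with edgeR adjusted p-values of 0.0150 and 0.00286.

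A single gene other than the members was tested within the span of the centromere-side cluster, AC092329.3, whose span overlaps that of ZNF724. Its mean in SK-N-BE2 was 1.32 CPM in controls and 2.13 CPM after treatment (log2 fold change 0.66, edgeR adjusted p = 0.0468) and in NGP 4.35 against 2.90 CPM (-0.61, adjusted p = 0.0386). In NGP it thus fell where ZNF724 rose, and reads that fall on exons of both genes are not assigned by the counting used.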
